A study of Homo sapiens with 61 samples.

Results

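The subject here is the response to vincristine that neurons made after loss of DLK, set against the response of wild-type (WT) neurons, gene by gene. For each gene, the vincristine effect in the DLK knockout (KO) was compared with the effect in WT, and the change of response was separated from any change that the KO already showed before treatment. The comparison used 16 of the 61 libraries of the series, 4 each of WT untreated, WT vincristine, DLK KO untreated and DLK KO vincristine. Of the 58440 gene identifiers in the table, 18235 had enough counts to be tested, and all of them are described below as classes, lists or single genes.

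All cells derived from the WTC11 line of human induced pluripotent stem cells, a widely used established line, and carried a doxycycline-driven cassette for NGN2, the transcription factor that turns such cells into cortical-like excitatory neurons. The DLK KO line is labelled as a knockout of DLK, the product of the gene MAP3K12. On day 14 of differentiation the cultures received 5 nM vincristine or DMSO vehicle (called untreated in the labels and here), and RNA was taken 16 hours later. The labels name 1 line per genotype, so the genotype and the history of that line cannot be told apart, and they do not say whether the 4 numbered libraries of a group were separate cultures. The p-values rest on the spread between libraries within groups, which may be technical. That spread was estimated over all 32 libraries (8 groups) of the first experiment, other knockout lines included.

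DLK is a kinase of neurons and axons that reports damage to microtubules and axons. It activates the kinases MKK4 and MKK7, which activate JNK, and JNK acts on the transcription factors JUN and ATF2. Vincristine blocks the assembly of tubulin into microtubules, and depending on the neuron the DLK pathway is known to drive axon regrowth, axon loss or apoptosis. The integrated stress response, which works through the transcription factor ATF4, is known to be engaged by DLK signalling in injured neurons.

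The 16 libraries held 8.77 M to 14.6 M counted reads. The deleted gene checked the labels first. MAP3K12 stood at 89.8, 94.3, 90.2 and 89.7 normalised CPM in the WT untreated libraries 1 to 4 and at 23.7, 25.9, 25.8 and 29.7 CPM in the DLK KO untreated libraries. CPM are counts scaled to the TMM-normalised library size, and they compare a gene between libraries, not genes with each other. The groups did not overlap, and the KO level was 1.79 lower on the log2 scale (adjusted p = 2.8e-16). RNA from the gene was still counted in the KO, and the labels do not say which part was deleted. MAP3K13, the gene of the related kinase LZK, had a mean of 99.1 CPM in untreated WT and 106 CPM in untreated DLK KO, a difference that did not pass the test (0.09, SE 0.06). Neuron markers summed to between 14901 and 15798 CPM in WT untreated libraries and between 15088 and 16543 CPM in DLK KO untreated libraries. After vincristine the sums were 12554 to 14029 CPM in WT and 16407 to 17262 CPM in DLK KO, so the treated groups did not overlap. The sums include TUBB3, a tubulin gene, and MAP2, which lies in a chromosome 2 stretch lowered in DLK KO (both below). The part of these marker levels in the results was not tested. Defining markers of microglia (AIF1, P2RY12) were at 3 counts or fewer in all libraries. In these bulk samples, fewer cells of a kind and less RNA per cell cannot be told apart.

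WT vincristine library 4 stood apart from the other 3 libraries of its group. A chi-square comparison of counts gave 33.3 to 49.1 per degree of freedom in its 3 pairs and 1.72 to 7.85 in the other 21 pairs of replicates. Small RNA genes took 3.14% of its counts and mitochondrial genes 10.3%, the highest shares of the 16 libraries. Without it, 13 of the 40 counts of lower or higher differences in the 20 gene lists below changed, each by at most 2 genes. Of the 181 genes with a called difference among the list members and the genes chosen for naming, 7 lost the call without it, among them SLC7A3, SH3RF1 and MCM2, and 9 others gained one.

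Vincristine moved far more genes in WT than in DLK KO neurons. A gene is called here when its adjusted p is under 0.05 (edgeR's quasi-likelihood test, Benjamini-Hochberg adjustment over all 18235 genes). In WT, 2855 genes rose (15.7% of the genes tested) and 2643 fell (14.5%). In DLK KO, 774 rose (4.24%) and 416 fell (2.28%). The DLK KO count moved with the fit. Without WT vincristine library 4, which is in no DLK KO group, it was 2591 genes, beside 6050 in WT, and limma with library quality weights gave 3583. At a fold of at least 2, the counts were 982 genes in WT and 113 in DLK KO.

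The difference between the 2 effects was itself called for 3531 genes (19.4%), of which 1716 were lower in DLK KO (9.41%) and 1815 higher (9.95%). Without WT vincristine library 4 the difference was called for 3355 genes, and 2950 genes were called in both fits. With only the 4 groups in the fit, it was called for 2856 genes. Most of these differences were a WT response that was smaller in DLK KO. For 2492 genes the WT response was called and smaller in DLK KO, where it was not called. For 196 genes the response was smaller but still called. This split rests on the DLK KO call, which moved with the fit, from 1190 genes to 2591 without WT vincristine library 4. It was not counted in other fits, and a response that was not called is not shown to be absent. A WT response was larger in DLK KO for 2 genes and reversed for 89. For the last 752 genes no response was called in WT. Across 12085 well-measured genes (at least 5 CPM in a group and more than 3 mean counts in each), Pearson's r between the WT and the DLK KO effect was 0.36, and over all 18235 genes it was 0.19, both descriptions over genes, which are not independent replicates.

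**Figure D1:**
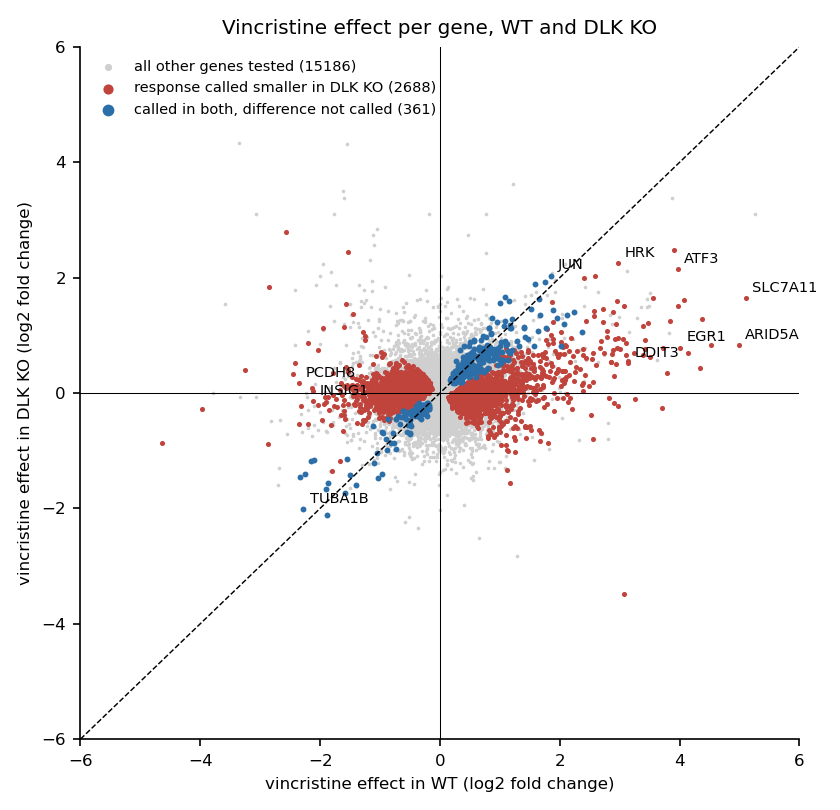
Vincristine effect of each of the 18235 genes tested, in WT (horizontal axis) and DLK KO (vertical axis), both as log2 fold changes, with the dashed line marking equal effects. The 2688 red genes, called with a smaller response in DLK KO, lie along the horizontal line of no effect in DLK KO, while the 361 blue genes, called in both genotypes with no called difference, lie along the dashed line.

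Genes chosen in other libraries were read next, so that the WT effect did not pick them. In the series' second experiment, WTC11 neurons carried guide RNAs (gRNAs), and with the Control gRNA vincristine raised 17.1% of 20759 genes and lowered 18.1%. Of the genes called there with a rise of at least 2-fold, 629 were tested here. Their median log2 effect was 1.08 in WT and 0.39 in DLK KO, where the median over all genes tested was 0.00 in each. The effect was called smaller in DLK KO for 259 of them and larger for 1. Over all genes tested, 9.41% had a lower and 9.95% a higher effect in DLK KO. Of the genes that fell there by at least 2-fold, 141 were tested here. Their median effect was -1.13 in WT and -0.10 in DLK KO. For these a smaller fall is a higher effect, and the fall was called smaller for 90 and larger for 0. Before treatment, the falling genes already stood lower in DLK KO than in WT, with a median difference of -0.41 and with 70 of 141 called lower and 31 higher. The rising genes had a median of -0.18, with 185 of 629 called lower and 106 higher. Over all genes tested, 3267 stood lower (17.9%) and 3017 higher (16.5%) in untreated DLK KO.

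The untreated level separated these changes of response into distinct patterns. Before treatment, 6284 genes (34.5%) differed between DLK KO and WT, and after vincristine 7659 (42%) did. The difference in effect was called for 1854 genes whose untreated level also differed and for 1677 whose untreated level was not called. Both tests use the same untreated libraries, so their errors are linked, and these counts separate the genes without testing one against the other. Patterns were defined by level. There were 1589 genes with a like start (untreated difference not called and under 0.5 on the log2 scale, 780 lower and 809 higher in effect). Another 109 had a changed start, with untreated levels at least 2-fold apart and called, and vincristine levels not called apart (48 lower, 61 higher). For 1010 genes both levels differed (487 lower, 523 higher), and 823 fell between these definitions. Without WT vincristine library 4 these counts were 1355, 118, 1050 and 832. Of the 2688 smaller responses, 1237 (46.0%) had a like start, 862 (32.1%) differed at both levels and 69 (2.57%) had a changed start.

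**Figure D2:**
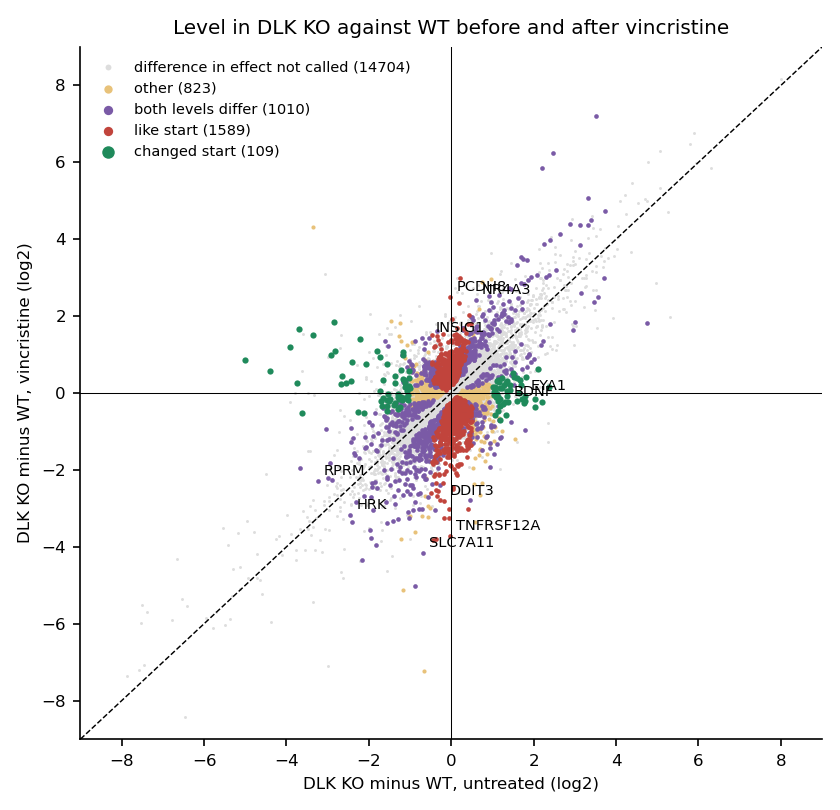
Difference in level between DLK KO and WT (log2) before treatment (horizontal axis) and after vincristine (vertical axis) for each gene tested, coloured by pattern, with the dashed line marking an unchanged difference. The 1589 like-start genes form a vertical band, and the 109 changed-start genes lie on both sides along the horizontal line, where the treated levels meet.

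In the 10 like-start genes with the lowest difference, WT neurons had a called rise, and DLK KO neurons had a smaller rise or none that was called. TNFRSF12A, the receptor of the cytokine TWEAK, stood at 0.86, 0.65, 0.21 and 0.80 CPM in WT untreated libraries and 13.8, 15.9, 14.7 and 11.8 CPM after vincristine. In DLK KO it stood at 0.86, 0.70, 0.44 and 0.32 CPM before and 1.46, 0.68, 0.79 and 1.33 CPM after. Only the WT vincristine libraries were high, and they overlapped no other group. The WT effect was 4.53 and the DLK KO effect 0.83 (not called), a difference of -3.69 with an SE of 0.52 (adjusted p = 2.7e-06). The gene lies at chr16:3018445-3022383 (GRCh38, as the count table gives it).

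DDIT3 encodes CHOP, a transcription factor of the integrated stress response with known links to cell death. Its WT levels were 15.3, 13.0, 11.9 and 9.74 CPM untreated and 94.6, 111, 93.6 and 141 CPM after vincristine. In DLK KO they were 9.37, 11.1, 12.4 and 11.0 CPM untreated and 16.4, 15.4, 14.6 and 16.3 CPM after vincristine. The treated KO libraries thus ended near the upper end of untreated WT, at 14.3% of the treated WT mean. The difference in effect was -2.62 (SE 0.24, adjusted p = 9.6e-10).

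UNC5B, a netrin receptor known both for axon repulsion and as a dependence receptor, rose in WT from between 4.85 and 6.12 CPM to 92.4, 74.2, 69.2 and 41.9 CPM. In DLK KO the treated libraries stood at 8.93, 11.0, 5.07 and 9.34 CPM. The lowest treated WT value came from library 4, and the difference in effect was -2.95 with it and -3.13 without it. CDKN1A, the cell cycle inhibitor p21, stood between 20.9 and 26.8 CPM in treated WT and between 3.49 and 4.61 CPM in treated DLK KO libraries (difference -2.54). ABCB1, a drug efflux pump that carries vinca alkaloids, stood between 12.1 and 17.7 CPM in treated WT and between 0.76 and 1.66 CPM in treated DLK KO (difference -3.45). GPR50, an orphan receptor related to the melatonin receptors, rose 10.8-fold in WT and 1.90-fold in DLK KO, called in both (difference -2.50). SESN2, a stress-induced regulator of growth signalling, CHAC1, an enzyme that degrades glutathione, ASNS, which makes asparagine, and the transcript KC877982.1 completed the 10 lowest, with differences between -2.23 and -2.04. In all 10 of these genes, the 4 treated DLK KO libraries lay below the 4 treated WT libraries. The genes were chosen by a low difference and a like start in these same libraries, so this separation is no separate evidence.

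In the 6 like-start genes with the highest difference, WT neurons had a called fall and DLK KO neurons had none. PCDH8, a protocadherin of synapses, stood at 58.2, 68.2, 56.4 and 54.6 CPM in untreated WT and 14.3, 14.1, 10.6 and 7.22 CPM in treated WT. The DLK KO libraries gave 50.7, 47.3, 69.9 and 65.5 CPM before and 71.4, 66.7, 61.0 and 63.7 CPM after vincristine. The treated WT libraries alone were low, and the difference in effect was 2.52 (SE 0.20, adjusted p = 1.4e-10). KCNJ12, an inward rectifier potassium channel, had a difference of 1.90, ZNF703, a transcriptional repressor, 1.61, and PPARGC1B, a coactivator of mitochondrial gene expression, 1.44. LRRC3B, a leucine-rich repeat membrane protein, had 1.40 and the Wnt receptor FZD1 1.39. FZD1 was called lower in WT (-0.97) and higher in DLK KO (0.43).

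**Figure D3:**
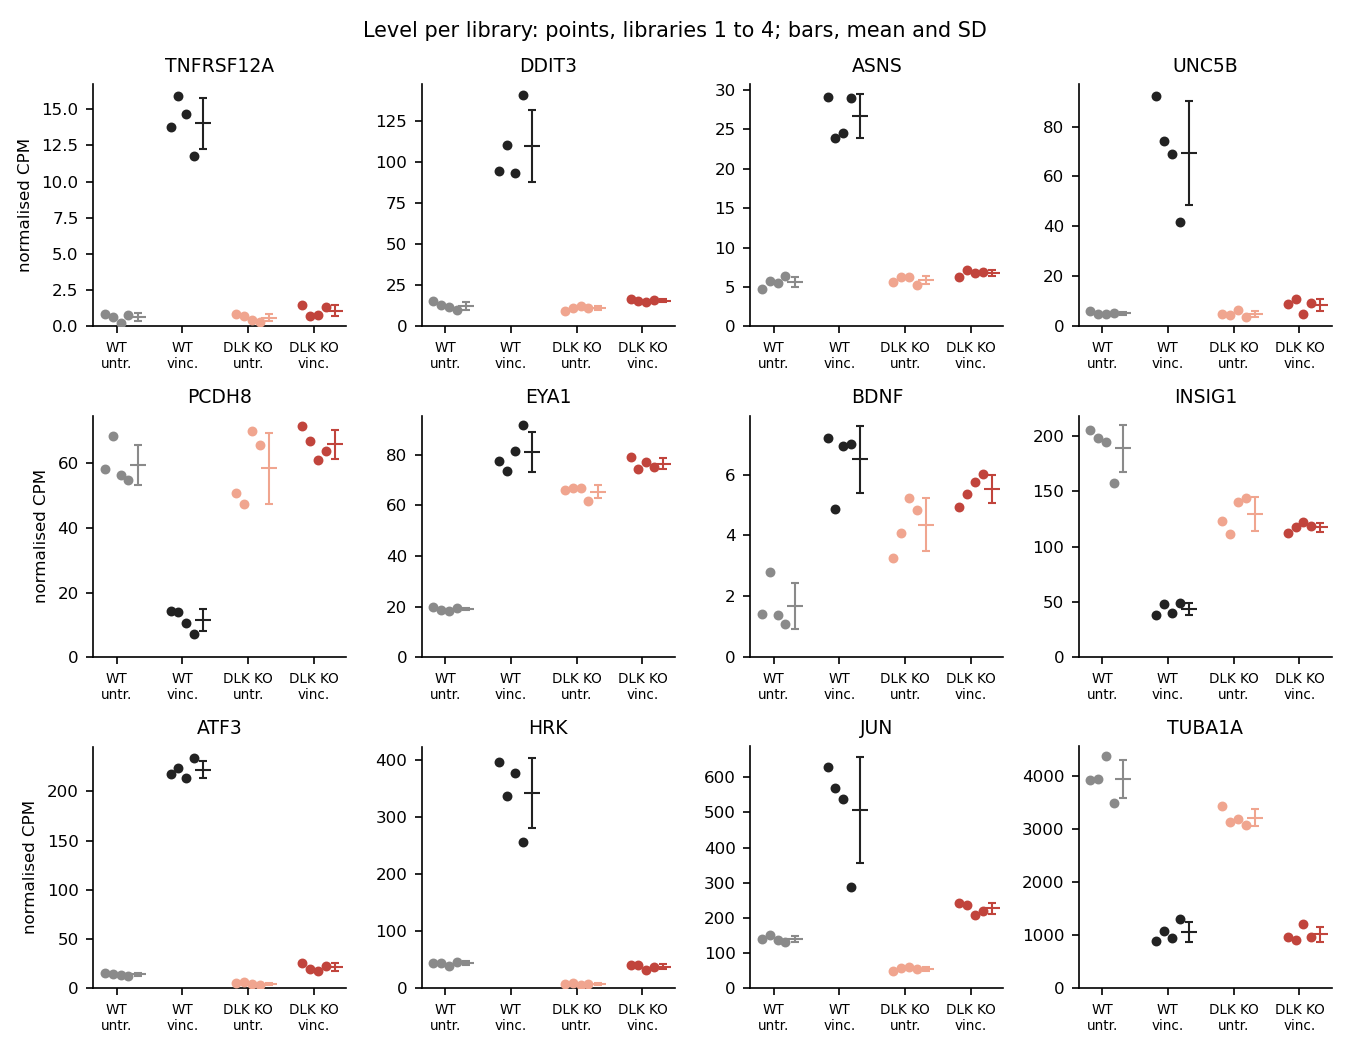
Normalised CPM of 12 genes in each library (points, libraries 1 to 4 of a group from left to right, with mean and SD beside them), with a linear axis from 0. TNFRSF12A, DDIT3, ASNS and UNC5B are high in treated WT libraries alone and PCDH8 is low there alone, EYA1 and BDNF already stood high in untreated DLK KO, and TUBA1A fell in both genotypes.

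The genes of the integrated stress response and of amino acid supply mostly rose in WT and rose less, or not at all, in DLK KO. Of 29 tested, 26 rose in WT and 0 fell, and 13 rose in DLK KO. The difference was called lower for 26 of 29 and higher for 1, beside 9.41% and 9.95% of all genes. The median effect of the list was 1.46 in WT and 0.36 in DLK KO. Before treatment 15 members stood lower and 2 higher in DLK KO, beside 17.9% and 16.5% of all genes, with a median of -0.28, and 10 members had a like start and 16 differed at both levels. ATF4, the transcription factor at the head of the response, had a like start and stood at 337, 387, 321 and 441 CPM in treated WT and 185, 177, 200 and 180 CPM in treated DLK KO. It rose by 1.09 in WT, and in DLK KO the effect was -0.06 and not called. SLC7A11, the cystine importer, had a difference in effect of -3.47. Its treated libraries stood at 126, 107, 120 and 154 CPM in WT and 6.60, 7.68, 7.26 and 6.67 CPM in DLK KO. STC2, a secreted glycoprotein, had a difference of -2.47. The member with the opposite sign was SLC7A3, an arginine transporter that was low in untreated DLK KO. Its call was lost in 14 of 23 alternative fits. Genes for cytosolic aminoacyl-tRNA synthetases, which charge tRNAs with amino acids, had a lower effect in 12 of 20 and a higher one in 2. GARS, CARS and TARS had differences of -1.20, -1.17 and -1.13 from a like start, and SARS of -0.94. In WT vincristine library 4 GARS stood at 438 CPM against 343 to 357 CPM in the other 3 libraries, TARS at 331 against 233 to 242 CPM and SARS at 642 against 555 to 561 CPM. Without that library the differences of GARS and SARS were -1.11 and -0.88, TARS was still called, and the list had 10 lower and 3 higher.

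Promoter sequences are shown for ASNS, CHAC1, DDIT3 and ATF3, the last described below. They were picked because each holds a match to a motif that factors of the stress response or AP-1 and ATF factors are known to bind. The promoters searched for SESN2, STC2, CEBPB and CEBPG, which also had a lower effect, held no match. The RefSeq table (GRCh38.p14) held a promoter for 11290 genes tested, and the search covered 250 bases before to 50 after each start on both strands. The amino acid response motif, searched as TGATGNAA, was present in 1.63% of these promoters, and in 5 of 68 (7.35%) of the promoters of like-start genes with a difference of -1 or lower. The AP-1 motif, searched as TGANTCA, was in 4.35% and in 7 of 68 (10.3%). In like-start genes with a difference of 1 or higher the shares were 0 of 44 for the first and 1 of 44 (2.27%) for the second. Among all genes with a called difference, whatever their start, the AP-1 motif had nearly the same share on both sides, in 19 of 196 promoters (9.69%) at -1 or lower and in 17 of 189 (8.99%) at 1 or higher. TGATGNAA was in 11 of those 196 (5.61%) and in 1 of those 189 (0.529%). Over all 27305 promoters of the table, expressed or not, the shares were 3.67% and 7.76%. The JUN-ATF type of site, searched as TGACNTCA and so including the palindromic CRE, was in 6.69% of the promoters of tested genes and in 7 of those 68, and among all called genes in 22 of 196 (11.2%) and 8 of 189 (4.23%). Only 68 of 163 such genes had a promoter in the table, and a match describes letters, not binding. Capitals mark the motif matches in the 250 bases before the start, written 5′ to 3′ on the gene's strand, for ASNS at chr7:97872409-97872658 (minus strand, match at -68), CHAC1 at chr15:40953221-40953470 (plus strand, match on the other strand at -209), ATF3 at chr1:212565157-212565406 (plus strand, a TGATGNAA match at -191 and a TGACNTCA match at -123) and DDIT3 at chr12:57520515-57520764 (minus strand, a TGANTCA match at -241).
ASNS: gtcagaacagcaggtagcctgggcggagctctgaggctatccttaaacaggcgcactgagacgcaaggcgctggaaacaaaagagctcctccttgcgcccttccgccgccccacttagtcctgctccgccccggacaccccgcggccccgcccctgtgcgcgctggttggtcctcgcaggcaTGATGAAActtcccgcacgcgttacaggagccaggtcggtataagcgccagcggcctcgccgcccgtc
CHAC1: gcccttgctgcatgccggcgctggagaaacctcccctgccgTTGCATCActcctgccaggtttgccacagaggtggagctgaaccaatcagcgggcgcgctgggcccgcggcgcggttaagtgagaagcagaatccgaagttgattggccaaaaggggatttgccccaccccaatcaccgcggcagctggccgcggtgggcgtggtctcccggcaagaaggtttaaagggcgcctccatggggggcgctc
ATF3: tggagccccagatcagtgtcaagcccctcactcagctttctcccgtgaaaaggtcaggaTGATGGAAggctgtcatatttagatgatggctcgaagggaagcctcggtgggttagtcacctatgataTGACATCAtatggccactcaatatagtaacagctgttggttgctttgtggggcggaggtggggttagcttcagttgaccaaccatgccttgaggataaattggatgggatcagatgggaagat
DDIT3: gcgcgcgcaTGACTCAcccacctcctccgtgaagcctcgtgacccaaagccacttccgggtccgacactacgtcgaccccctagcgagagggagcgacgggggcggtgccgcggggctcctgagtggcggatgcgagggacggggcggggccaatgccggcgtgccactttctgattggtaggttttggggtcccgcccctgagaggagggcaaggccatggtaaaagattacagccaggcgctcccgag

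Among AP-1, ATF and partner transcription factors, loss of response was uneven. Of 16 tested, 13 rose in WT and 6 in DLK KO. The difference was called lower for 7 and higher for 0, beside 9.41% and 9.95% of all genes. Before treatment 8 stood lower in DLK KO and 2 higher, beside 17.9% and 16.5% of all genes. ATF3, an injury-induced partner of JUN, stood at 15.1, 14.9, 13.9 and 12.5 CPM in untreated WT and 218, 223, 213 and 234 CPM in treated WT. In the knockout it was at 4.97, 5.98, 4.60 and 3.66 CPM before and 26.1, 19.9, 17.1 and 22.8 CPM after. ATF3 therefore both started lower (-1.55) and rose less, by 2.15 in place of 3.98 on the log2 scale. FOS went the other way at the start, with 1.72, 2.05, 2.32 and 2.38 CPM in untreated WT and 4.02, 4.99, 4.07 and 4.41 CPM in untreated DLK KO. It rose to 17.0, 15.5, 19.2 and 12.3 CPM in WT, and in DLK KO its effect was 0.30 and not called (difference -2.61). CEBPB and CEBPG, C/EBP factors that pair with ATF4, had differences of -2.23 and -1.47.

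JUN itself rose in both genotypes, from a lower level in DLK KO. It stood at 140, 151, 138 and 131 CPM in untreated WT and 629, 570, 538 and 289 CPM in treated WT. Without DLK its levels were 48.2, 57.9, 60.5 and 54.4 CPM before and 242, 237, 208 and 221 CPM after. The treated KO libraries lay above untreated WT and below treated WT, in which library 4 was lowest. The effect was 1.86 in WT and 2.04 in DLK KO, a difference of 0.18 with a 95% interval of -0.21 to 0.57. Without library 4 the difference was -0.01 (adjusted p = 0.96). The untreated difference was -1.34 (adjusted p = 5.8e-09). In CPM, the mean rise was 367 in WT and 172 in DLK KO. ATF2 had no called effect in either genotype, and its level in DLK KO was 50.4% of WT before and 48.2% after treatment.

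Several genes of apoptosis rose in both genotypes and ended at different levels. BH3-only genes encode proteins that start mitochondrial apoptosis. Of 8 tested, 6 rose in WT and 5 in DLK KO. The difference was called lower for 4 and higher for 1, beside 9.41% and 9.95% of all genes. HRK stood at 44.2, 44.5, 38.4 and 46.6 CPM in untreated WT and 395, 337, 377 and 256 CPM in treated WT. In DLK KO it stood at 8.13, 9.77, 6.45 and 7.21 CPM before and 40.8, 40.2, 31.4 and 38.1 CPM after. A 4.77-fold rise was left in DLK KO, yet the treated KO libraries overlapped the untreated WT libraries. The untreated difference was -2.46 and the difference in effect -0.72 (adjusted p = 0.0042), so the larger part of the gap in treated HRK level, -3.18, was there before vincristine. BCL2L11 (BIM) had the opposite start, higher in untreated DLK KO by 0.77, and rose 5.42-fold in WT and 2.37-fold in DLK KO (difference -1.19). BBC3 (PUMA) stood between 22.4 and 42.6 CPM in treated WT and between 7.96 and 13.0 CPM in treated DLK KO (difference -1.15). PMAIP1 (NOXA) rose in both, by 2.08 and 1.20, and its difference of -0.88 did not pass the test (SE 0.49). BIK, another member with a lower effect, stood at no more than 0.405 CPM in treated WT. BID, a BH3-only protein cleaved by caspases, fell by 0.57 in WT and had a difference of 0.47.

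Of 7 BCL2 guardians and effectors, 2 had a higher effect in DLK KO and 1 a lower one, BCL2L2, a call lost in 16 of 23 alternative fits. Over all genes tested, 9.95% had a higher and 9.41% a lower effect. BCL2L1 and MCL1, which restrain apoptosis, fell by 0.34 and 0.23 in WT and were not called in DLK KO, with differences of 0.44 and 0.35. BAX, an effector, stood at 6.06 and 6.12 CPM in WT before and after, and at 7.71 and 7.86 CPM in DLK KO. Among 8 TNF and death receptors, 3 differences were lower and 2 higher. TNFRSF10B, the TRAIL receptor DR5, stood between 18.7 and 23.1 CPM in treated WT and between 1.05 and 2.45 CPM in treated DLK KO. Its untreated level was already lower (-1.98), and the difference in effect was -1.58. NGFR, the p75 neurotrophin receptor, had a difference of 0.66, and in WT vincristine library 4 it stood at 9.27 CPM against 15.8 to 16.4 CPM in the other 3. Without that library the difference was 0.51 (adjusted p = 0.011).

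Most early response genes that rose in WT rose less in DLK KO. EGR1, a zinc finger factor induced by activity and injury, stood at 19.3, 17.6, 17.2 and 20.1 CPM in untreated WT and 371, 309, 325 and 191 CPM in treated WT. The DLK KO libraries gave 25.1, 29.9, 21.0 and 25.4 CPM before and 48.7, 43.9, 39.6 and 42.8 CPM after. It rose 16.1-fold in WT and 1.73-fold in DLK KO, both called (difference -3.22, SE 0.21, and -3.39 without WT vincristine library 4, the lowest of its group). Of 12 early genes, 7 differences were lower and 1 higher, beside 9.41% and 9.95% of all genes. ARC, a synaptic plasticity protein, and IER2, an early response factor, had like starts and differences of -1.58 and -1.35. The opposite sign was seen in NR4A3, an orphan nuclear receptor, which fell in WT (-1.66) and had an effect of 0.17 in DLK KO that was not called.

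Genes tied to axon injury and regeneration did not move as one. Of 19 tested, 5 differences were lower and 4 higher, beside 9.41% and 9.95% of all genes. The median effect was 0.04 in WT and 0.27 in DLK KO. ARID5A, which binds DNA and RNA, stood at 80.3, 78.1, 68.7 and 41.5 CPM in treated WT and 2.23, 1.62, 2.10 and 2.29 CPM in treated DLK KO, a difference in effect of -4.15 (SE 0.47). Without the lowest treated WT library, library 4, it was -4.32. SMAD1, a BMP signal transducer, had a difference of -1.40 and FLRT3, a leucine-rich repeat adhesion protein, -1.45. GAP43, a growth cone protein, and SOX11, a regeneration-linked factor, had no called difference in effect, but their untreated levels differed by -0.60 and 1.94. Among 34 guidance receptors, ligands and integrins the difference was lower for 3, near the share of all genes, and higher for 9. ITGA8, an integrin subunit, had -2.88, and EPHA4, an ephrin receptor, had 0.79 with an untreated difference of -3.00. Of 17 neuropeptides and secreted factors, 3 were lower and 1 higher. STC1, a secreted calcium regulator, and SCG2, a granin of secretory vesicles, had differences of -1.72 and -0.90.

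Genes of cholesterol synthesis and uptake differed both in untreated level and in response. In WT, 17 of 19 fell after vincristine and 0 rose, with a median effect of -1.11. In DLK KO, 0 fell and 4 rose, with a median of 0.11. The difference was called higher for 18 of 19, beside 9.95% of all genes. Before treatment 18 of the 19 already stood lower in DLK KO, beside 17.9% of all genes, with a median difference of -0.79. INSIG1, which retains the sterol sensor in the endoplasmic reticulum (ER), stood at 205, 198, 194 and 158 CPM in untreated WT and 37.9, 48.4, 39.6 and 48.7 CPM in treated WT. In the knockout it was at 123, 111, 140 and 144 CPM before and 112, 118, 122 and 118 CPM after. The 2 KO groups overlapped between the WT extremes (difference in effect 1.97, SE 0.13). STARD4, a sterol carrier, and DHCR7, a reductase of the pathway, had differences of 1.75 and 1.53. None of the 19 had a like start.

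ER chaperone genes also fell less in DLK KO, and 8 of them had a like start. Of 19 tested, 14 fell and 5 rose in WT, and 6 fell and 0 rose in DLK KO. The difference was called higher for 13 and lower for 4, beside 9.95% and 9.41% of all genes. HSPA5 (BiP), the main ER chaperone, stood at 87.3, 100, 91.2 and 96.5 CPM in treated WT and 184, 182, 179 and 183 CPM in treated DLK KO, from untreated means of 234 and 230 CPM. It fell by 1.32 in WT and by 0.34 in DLK KO, both called. CRELD2, a secreted ER stress protein, had a difference of 1.21. The 4 with the opposite sign rose in WT. They were XBP1, a transcription factor of the unfolded protein response, HERPUD1 and EDEM1, which serve ER-associated degradation, with differences of -1.62, -1.29 and -1.20, and SEL1L.

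**Figure D4:**
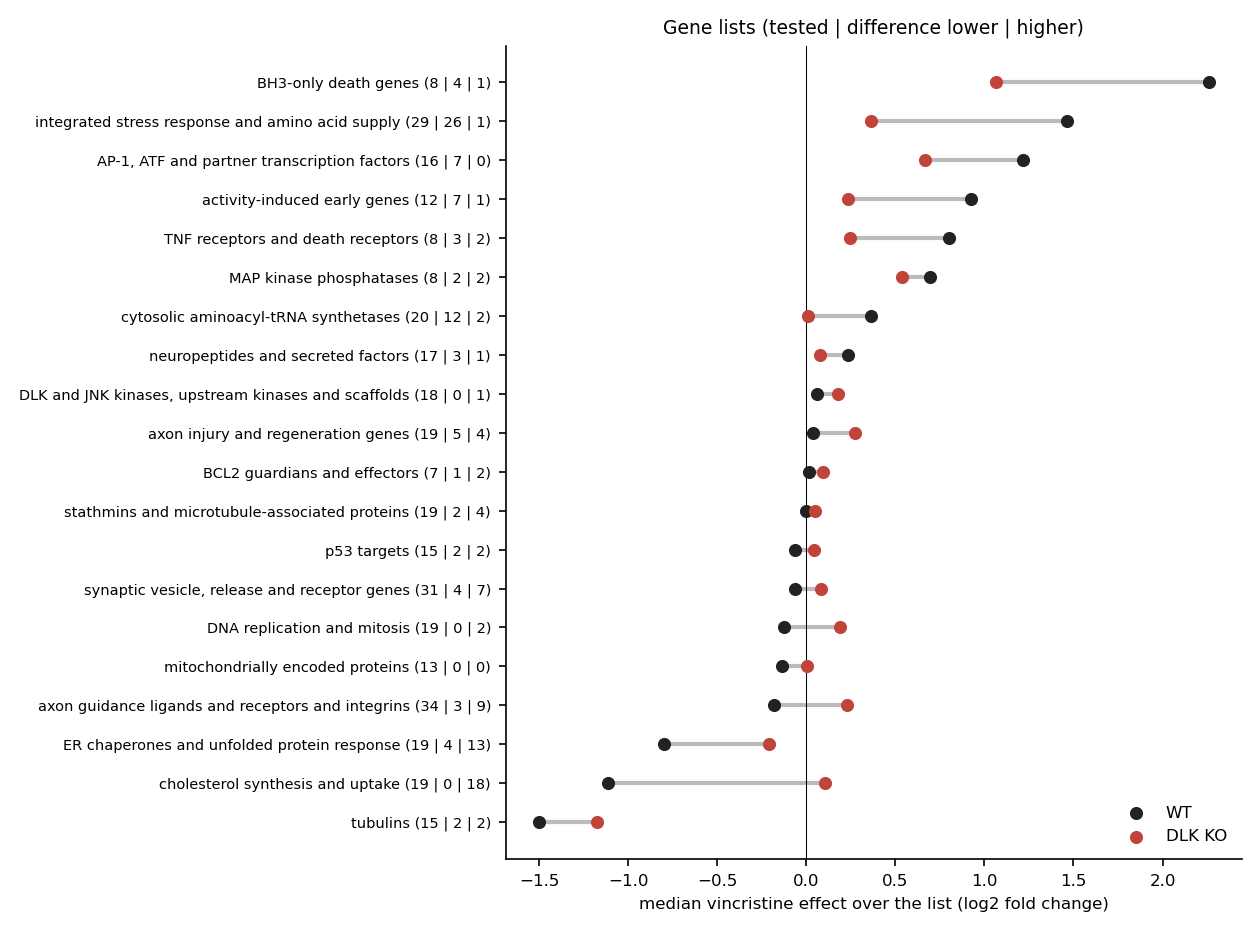
Median vincristine effect (log2 fold change) over the tested members of 20 gene lists, in WT (black) and DLK KO (red), with the number tested and the numbers with a lower or higher called difference beside each name. The list medians of the stress response, BH3-only and cholesterol genes lie closer to 0 in DLK KO, and the tubulin medians of -1.50 and -1.18 lie close together.

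Most tubulin genes fell in both genotypes. Tubulin mRNA is known to be degraded when free tubulin dimers accumulate. Of 15 tested, 11 fell in WT and 11 in DLK KO, with medians of -1.50 and -1.18. Differences were lower for 2 and higher for 2, beside 9.41% and 9.95% of all genes. TUBA1A stood at 3939, 3959, 4387 and 3505 CPM in untreated WT and 893, 1086, 941 and 1315 CPM in treated WT. Without DLK its levels were 3446, 3145, 3196 and 3077 CPM before and 969, 914, 1214 and 968 CPM after. The treated groups overlapped, and the difference in effect was 0.24 with an SE of 0.14. The alpha and beta tubulin genes TUBA1B, TUBB4B and TUBB behaved alike in direction. TUBA1B fell by 2.28 and 2.02, TUBB4B by 1.86 and 1.55 and TUBB by 1.58 and 1.73 in WT and DLK KO. Without WT vincristine library 4 the differences of TUBA1A and TUBA1B were called, at 0.36 and 0.40, and TUBB4B had an adjusted p of 0.053 with all libraries. The gamma and beta tubulin genes TUBG1 and TUBB4A had called differences of 0.48 and 0.45, and TUBE1 and TUBB6, which rose in WT, of -1.28 and -0.83. Among 19 stathmin and microtubule-associated protein genes, 2 differences were lower and 4 higher. STMN4, a stathmin that binds tubulin dimers, rose by 1.19 in WT and 1.13 in DLK KO, from an untreated level lower by 0.91.

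In all, 361 genes were called in both genotypes in the same direction without a called difference (247 rose, 114 fell). Their number rests on the DLK KO call, which moved with the fit, and was not counted in other fits. Of them, 232 had a different untreated level, beside 34.5% of all genes. Calls in both genotypes favour well-measured genes, in which an untreated difference is also more easily called. Beside PMAIP1, the strongest kept rises were AL137003.1, a non-coding transcript, INSM1, a neuroendocrine zinc finger factor, and HELZ2, a nuclear receptor coactivator. Without WT vincristine library 4 the difference of INSM1 was called, at -0.85. HELZ2 stood between 40.9 and 107 CPM in treated WT and between 14.7 and 20.8 CPM in treated DLK KO, having started lower by 1.67, so its treated KO libraries overlapped untreated WT (19.2 to 25.7 CPM). Its difference in effect was -0.45, and without library 4 it was -0.67 (adjusted p = 0.058). Among all 676 genes with a rise of at least 2-fold in WT, the treated KO libraries lay below every treated WT library for 472. They lay below every untreated WT library for 63, of which 21 still had a called rise in DLK KO. The 676 were chosen by high treated WT levels in the same libraries, which favours such separation, and its share over all genes was not counted. Over all genes tested, the treated level was called apart for 42%. For 294 of the 676 the difference in effect was not called, and for 201 of these 294 the treated level was still called apart.

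The named changed-start genes stood, before treatment, near the level that WT neurons reached with vincristine, or past it. EYA1, a transcriptional coactivator and phosphatase, stood at 19.7, 18.7, 18.5 and 19.4 CPM in untreated WT and 77.5, 73.5, 81.3 and 91.8 CPM in treated WT. In DLK KO it stood at 66.0, 66.9, 66.9 and 61.6 CPM before and 79.1, 74.2, 76.9 and 75.3 CPM after. The treated groups overlapped, and the difference in effect was -1.86 (adjusted p = 1.4e-13) with an untreated difference of 1.78. MCHR1, the receptor of melanin-concentrating hormone, and BDNF, a neurotrophin, followed the same order, with differences in effect of -1.82 and -1.60. BDNF stood between 1.09 and 2.80 CPM in untreated WT, between 4.86 and 7.19 CPM in treated WT, and between 3.25 and 6.00 CPM in the 8 DLK KO libraries. In the other direction LEF1, a Wnt pathway transcription factor, stood between 4.01 and 6.39 CPM in untreated WT, between 1.11 and 1.74 CPM in treated WT and between 1.02 and 3.12 CPM in DLK KO libraries of both treatments. The non-coding transcripts AC008897.3, AC124798.1 and AC108062.1 followed LEF1, with differences of 1.52, 1.58 and 1.62, and AC096576.1 had -1.48, with untreated DLK KO libraries (4.15 to 6.18 CPM) above treated WT (2.35 to 3.34 CPM).

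For 321 genes with a called difference, a response was called in DLK KO that was not called in WT or had the opposite sign there. Of them, 188 rose in the KO. This number also rests on the DLK KO call, which moved with the fit, and was not counted in other fits. RPRM, a p53-linked arrest gene, stood between 145 and 165 CPM in untreated WT and between 16.4 and 16.8 CPM in untreated DLK KO, and at 33.6, 39.3, 38.0 and 31.7 CPM in treated DLK KO. It rose by 1.11 in DLK KO, while the WT effect was 0.16 and not called (difference 0.95, adjusted p = 9.7e-08). ZNF488, a zinc finger repressor, had 0.75 in DLK KO and a difference of 1.38. The transcripts AF131215.4, AC122718.1 and Z83843.1 fell in DLK KO by 0.89, 0.81 and 0.77. In WT, AF131215.4 rose by 0.88, and the other two were not called.

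The remaining lists held few differences or differences in both directions. Over all genes tested, 9.41% had a lower and 9.95% a higher difference. Among 18 genes for DLK, LZK, JNK and their regulators and scaffolds, the single called difference was SH3RF1 (POSH), at 0.32, a call lost in 17 of 23 alternative fits. MAP kinase phosphatases had 2 lower and 2 higher of 8. DUSP16, which acts on JNK, rose 5.31-fold in WT and by 2.00 on the log2 scale in DLK KO, from a start lower by 1.11 (difference -0.41). DUSP1 had -0.44, DUSP4 0.67 and DUSP7 0.98. Of 15 p53 targets, 2 were lower and 2 higher. BTG2, an antiproliferative gene, had a difference of -0.73, while TP53INP1 and ZMAT3 had 0.52 and 0.46. Replication and mitosis genes had 0 lower and 2 higher of 19, TICRR (2.94), and MCM2, a call lost in 13 of 23 alternative fits, and 13 mitochondrially encoded genes had none called, with 0 called for either effect. Of 31 synaptic genes, 4 were lower and 7 higher, among them HOMER1, a postsynaptic scaffold (-0.81), and GRIN2A, an NMDA receptor subunit (0.60). CPLX1 and UNC13A, which serve vesicle release, had 0.77 and 0.74, and both were lowest in treated WT library 4, at 16.9 and 133 CPM. Without that library the differences were 0.56 and 0.55, both called.

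Several neuron-type markers differed between the lines, and their part in the results was not tested. The summed progenitor markers, nearly all of it NES, stood at 732 to 773 CPM in untreated WT, 920 to 1945 in treated WT, 209 to 273 in untreated DLK KO and 489 to 602 in treated DLK KO. NES rose by 1.09 in WT and 1.25 in DLK KO. The treated WT libraries stood at 1919, 1750, 1552 and 894 CPM for NES, with library 4 lowest. SOX2, a progenitor factor, stood between 18.3 and 25.6 CPM in WT libraries and between 3.49 and 7.85 CPM in DLK KO libraries. POU4F1, a sensory neuron factor, stood at 423, 455, 437 and 425 CPM in untreated WT, between 108 and 213 CPM in treated WT and between 174 and 222 CPM in all DLK KO libraries. ISL1, a factor of motor and sensory neurons, stood between 0.63 and 1.62 CPM in WT and between 17.1 and 21.7 CPM in DLK KO libraries.

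The untreated level of DLK KO was also shifted over stretches of neighbouring genes. Stretches were windows of 25 expressed neighbouring genes whose median difference from WT was at least 0.5 in the same direction before and after treatment, a definition made after the levels were seen. There were 6 stretches, defined by 863 genes with a mean of at least 1 CPM, of which 665 differed before treatment. The longest, chr2:127257290-242160153, held 459 genes with a median of -0.88 before and -0.95 after vincristine, and it contained ATF2 (chr2:175072250-175168382), RPRM, EPHA4 and SCG2. Another 3 lay on chromosome 5 (medians -0.88, -0.75 and -0.69 before treatment) and held HOMER1 and PPARGC1B, among others. One of 0.4 Mb and 33 genes on chromosome 15 had -1.15 before and -0.50 after vincristine. One of 6.4 Mb and 25 genes on chromosome 17 was raised, by 0.90 before and 0.51 after. On the same genes of the chromosome 2 stretch, the untreated LZK KO line had a median of 0.06 and the DLK LZK double KO line 0.03 against WT. On chromosome 5 the LZK KO medians were -0.08, 0.12 and -0.02, and those of the double KO -0.02, 0.09 and 0.24. On chromosome 15 the 2 lines stood higher than WT, at 0.64 and 0.45, and on chromosome 17 they had -0.14 and 0.30. ATF2 stood at 165 and 148 CPM in those lines, 141 in WT and 71.0 in DLK KO. The difference in effect was called for 197 of the 863 genes (22.8%). All genes tested within the same coordinates, those of lower level included, numbered 1056, and it was called for 201 of them (19.0%), beside 19.4% of all genes, with a median of -0.07. Which results the lower ATF2 level bears on was not tested.

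The LZK KO and double KO lines were set beside the DLK KO line. Vincristine had a called effect on 707 genes of the LZK KO line and 12 of the double KO line. The counts were 1190 for DLK KO and 5498 for WT. At a fold of at least 2 they were 106 for LZK KO, 10 for the double KO and 113 for DLK KO. A count below that of WT was therefore not particular to the DLK KO line. Whether the LZK KO or double KO effect differed from the WT effect was not tested. The vincristine effect in DLK KO differed from that in LZK KO for 12 genes (0.0658%, 1448 at an unadjusted p under 0.05), and the double KO effect differed from that in DLK KO for 207 genes (1.14%). These comparisons share the DLK KO libraries with those above, so only their own values are given. EGR1 rose by 2.19 in LZK KO and by 0.79 in DLK KO, a difference of -1.41 (adjusted p = 0.018). TUBB fell by 1.19 in LZK KO, and the difference was -0.54. DHCR7 had an effect of -0.34 in LZK KO and a difference of 0.63. The effect was smaller in the double KO than in DLK KO for JUN, HRK and ATF3, with called differences of -1.82, -1.99 and -1.78. Their double KO effects were 0.22, 0.26 and 0.37, none called, with means of 39.6 and 46.0 CPM for JUN, 3.42 and 4.19 for HRK and 1.63 and 2.12 for ATF3 before and after vincristine.

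The like-start genes were then read in the second experiment, with gRNAs against ATF2 or JUN, the factors downstream of JNK. The ATF2 gRNA lowered untreated ATF2 from a mean of 129 to 0.53 CPM and JUN from 88.5 to 21.0 CPM, and the JUN gRNA lowered JUN to 2.87 CPM. Its libraries held 38.9 M to 88.4 M counted reads. Of 163 like-start genes with a difference of -1 or lower, 138 were tested there. With the control gRNA 86 of the 138 rose and 1 fell, with a median effect of 0.98, beside 17.1% and 18.1% of all genes and a median of 0.03. With the ATF2 gRNA the effect was called smaller for 69, where 10.4% of all genes had a lower and 10.2% a higher effect. With the JUN gRNA it was called smaller for 59, where 7.06% of all genes had a lower and 8.71% a higher effect. The median differences from the control gRNA effect were -0.89 and -0.54, and both use the control gRNA libraries. Of 68 like-start genes with a difference of 1 or higher, 64 were tested there. With the control gRNA 36 fell and 2 rose, and the effect was called smaller for 25 with the ATF2 gRNA and for 22 with the JUN gRNA.

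Single genes differed in how their responses changed under each gRNA. TNFRSF12A had a control gRNA effect of 4.09 and differences of -3.42 with the ATF2 gRNA and -1.55 with the JUN gRNA. DDIT3 had 2.89, with -2.34 and -1.30. ASNS had 0.69, with -0.29 that did not pass the test (adjusted p = 0.14) and -0.67. JUN, with no called difference in effect in DLK KO, had 1.42, with -1.46 under the ATF2 gRNA. EYA1 had 1.65, with -2.11 and -1.48, and BDNF 0.64, with differences of -0.16 and 0.14 that did not pass the test. PCDH8 fell by 1.78, with differences of 1.02 and 0.90. The loss of DLK and the loss of ATF2 by gRNA were measured in different lines and experiments. Their sizes stand side by side without a test. The DLK KO line also had a lower ATF2 level than WT (above), so loss of DLK and a lower ATF2 level cannot be told apart in it.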

How the data were processed

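RNA was measured in bulk from poly(A)-selected, stranded libraries, per the labels' protocols. The deposited tables hold whole-number read counts per gene. Per the submitters' processing notes, cutadapt 3.4, STAR, and featureCounts of Subread 2.0.1 were used with GRCh38. The strand setting is not given in the sources used here. Of 58440 gene identifiers, 58320 were paired with a symbol, and 56992 had the version and start of GENCODE release 29.

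All 32 libraries of the first experiment (8 groups) were fitted together with edgeR 4.0.16 in R 4.3.3 (filterByExpr with a minimum count of 10, TMM scaling, robust quasi-likelihood test). The 29 libraries of the second experiment were fitted separately. Totals of the 16 libraries compared ran from 8.77 M to 14.6 M counts. The script was tested on simulated data. Alternatives were DESeq2 1.42.0, limma 3.58.1 with voom and quality weights, RLE scaling, other filters, only the 4 groups, a replicate block and leaving out each library. Tables and figures were made with Python 3.11.15, pandas 2.3.3 and matplotlib 3.10.9.

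Named genes were the 10 lowest and 6 highest differences in effect with a like start, 4 and 4 with a changed start, 4 and 4 kept, 3 and 3 gained, the 2 kinases, and up to 4 members of each list with the largest called difference, or members needed to say what a list holds. They needed a mean of at least 5 CPM in 1 group and a mean count above 3 in each. The members and lists were chosen with earlier results of these data known. Values of some named genes are not reported here.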

Additional observations from a re-analysis of the deposited data

Results flagged for a closer look

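The difference in the vincristine effect between DLK KO and WT was called for 3531 genes by the interaction test, which is the result described above. Single libraries also stood apart from the other 3 of their group in 25 of 408 gene and group combinations (by Dixon's test), where chance gives about 1 in 20. Of these, 9 were in WT vincristine library 4. That library was highest for CEBPG at 292 CPM, GARS at 438, TARS at 331 and SARS at 642. It was lowest for DUSP7 at 9.27 CPM, DUSP4 at 76.5, NGFR at 9.27, MAP1A at 317 and UNC13A at 133. In the other WT vincristine libraries, MCHR1 at 12.5 CPM and BDNF at 4.86 were lowest in library 2 and MCL1 at 110.4 in library 1. In untreated WT, MAP3K12 was highest in library 2 at 94.3 CPM, and BCL2L1 at 63.9 and XBP1 at 33.0 were lowest in library 4. In untreated DLK KO, library 1 was lowest for DUSP4 at 200.4 CPM and CPLX1 at 32.7 and highest for TUBE1 at 38.6. Library 2 was highest for DUSP16 at 24.0 CPM and TUBB6 at 4.59, and library 3 for FLRT3 at 4.77. In treated DLK KO, library 3 was lowest for GPR50 at 21.2 CPM and PPARGC1B at 25.0 and highest for AC124798.1 at 2.97, and library 2 was lowest for TP53INP1 at 62.9. The cause was not tested.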

How the results depend on the processing

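No call of a named gene reversed under any alternative run. Near-even splits by direction did change sides. Of the called differences, 51.4% were higher in DLK KO, 47.7% with only the 4 groups and 59.2% with no filter. Of the called WT effects, 51.9% were rises, 49.8% with DESeq2 and 48.4% with no filter. Which direction held more genes was therefore not settled. The count of the vincristine effect in DLK KO, 1190 genes, was 3583 with limma voom, 661 with only the 4 groups, and between 598 and 2591 when 1 library was left out. The lowest, 598, was without DLK KO untreated library 1, and it was 659 without library 2 of that group. It was 616, 608 and 767 without DLK KO vincristine libraries 1, 2 and 4, and 2591 without WT vincristine library 4. The cause was not tested. Changed-start genes numbered 207 with no filter on low counts, where more genes were tested. With a difference of at least 0.5 in place of 1, more like-start genes entered the counts in the second experiment. Of 452 tested there with a lower difference, 286 rose with the Control gRNA. The effect was smaller for 208 with the ATF2 gRNA and for 157 with the JUN gRNA. Of 494 tested with a higher difference, 348 fell with the Control gRNA, and the effect was smaller for 243 and 194. Of 103 named genes, 86 kept their call throughout. Replicate numbers did not pair the samples: same-numbered libraries had correlations of deviations between -0.31 and 0.11, and each was closest to its own number in at most 2 of 4. With the replicate number as a block, the difference in effect was called for 3245 genes, and the effects in WT and DLK KO for 5259 and 956. Depth limits genes near 1 CPM, about 10 reads a library, where a missed call does not show equal responses.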
